A study of Mus musculus with 16 samples.

Results

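CD9+ macrophages were compared with CX3CR1+ macrophages sorted from the interface tissue of mouse knees on day 1 after anterior cruciate ligament reconstruction (ACLR). The members of the comparison were chosen by their sample labels alone, and they are 4 of the 16 bulk RNA-seq libraries of the series, namely 2 of CD9+ and 2 of CX3CR1+ cells. In ACLR a tendon graft is placed into drilled bone tunnels, and the interface tissue is what lies between the graft and the bone. The harvest also took a sliver of the bone beneath, which the authors could not part from the soft tissue. The paper states that some of its cell types could therefore lie in the bone around the tunnel. All groups came from wild-type C57BL/6 mice (C57BL/6J in the methods) that had the operation, so no library here is from an unoperated knee. The cells were sorted as live, lineage-negative, CD45+, CD11b+ and Ly6G-, then as F4/80+ CD9+ for the first population and as F4/80+ CX3CR1+ for the second. A figure legend of the study gives the sorted CX3CR1+ cells as CD9-. By the methods, the rare cells with both antigens were sorted with the CD9+ population. The lineage antibodies marked progenitors (CD34, c-Kit), erythroid cells (Ter119), T cells (CD3e), B cells (B220) and NK cells (NK1.1). Cells of several mice were pooled for each sort, so the spread between replicates is one between pools of mice, and whether the populations with the same replicate number came from 1 pool is not stated. The other 12 libraries were F4/80- myeloid cells and Ly6G+ neutrophils of day 1 and all 4 populations of day 14, and they enter below as reference levels and in the estimate of the spread.

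CD9 is a tetraspanin, a membrane protein that gathers other proteins into microdomains, and it is present on macrophages, granulocytes and platelets. CX3CR1 is the receptor for the chemokine CX3CL1. With CCR2 it is present on monocytes, which can enter inflamed tissue from blood, and on macrophages that arise from them. Drilling bone opens the marrow, so cells of the marrow and blood can reach the tunnel along with recruited monocytes in the first day.

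Levels are given as CPM, the read counts of a gene relative to a fixed library total, after TMM scaling, which corrects for the composition of each library, and only between libraries for the same gene. A differentially expressed gene (DEG) had an adjusted p under 0.05 in the quasi-likelihood test of edgeR (Benjamini-Hochberg over 11998 tested genes) together with a log2 fold change of 1 or more in size. Fold changes are CD9+ minus CX3CR1+ on the log2 scale and are given ± a standard error. This error is derived from the test statistic of the fit over all 16 libraries, and not from the compared libraries alone.

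The 4 libraries held 10587857 to 19814119 counts, so that 3 counts correspond to 0.131 to 0.316 CPM. The CD9+ libraries resembled each other less than the CX3CR1+ libraries did, with a correlation of log2 CPM across genes of 0.935 against 0.982. Between the populations this correlation was 0.914 to 0.927. The 50 genes with the most counts took 35.2% and 39.2% of the CD9+ libraries and 27.8% and 29.8% of the CX3CR1+ libraries. Among them, Gm42418, a transcript that overlaps ribosomal RNA repeats, was at 12821 and 42307 CPM in the CD9+ libraries against 8040.3 and 7327 CPM, and Gm23935, annotated as a microRNA, was at 25068 and 65846 against 8199 and 4215. In both cases the second CD9+ library stood apart, and without it Gm42418 was no DEG (0.74), nor was it without the first (1.88) or the second (1.74) CX3CR1+ library. Without these and 5 similar loci and the mitochondrial genes, an alternative chosen after seeing the data, 968 DEGs were found in place of 988.

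The sorting antigens followed the gates for CD9 and, by less than the threshold for a DEG, for CX3CR1. Cd9 (chromosome 6, 125460266 to 125494791 of mm10) was at 148 CPM in each CD9+ library and at 18.4 and 21.0 CPM in the CX3CR1+ libraries. The populations did not overlap, and the fold change was 2.91 ± 0.14 (adjusted p = 5.0e-09). Cx3cr1 (chromosome 9, 119901616 to 120069879) was at 72.7 and 93.4 CPM in CD9+ cells and at 133 and 147 CPM in CX3CR1+ cells. The second population was higher, but the fold change of -0.76 ± 0.17 (adjusted p = 0.007) did not reach the threshold on size, and it was -1.0 with scaling by library size only. Among the antigens shared by both gates, Adgre1, which encodes F4/80, differed by -0.35 ± 0.21 (adjusted p = 0.3), and Itgam, which encodes CD11b, by 0.29 ± 0.16 (adjusted p = 0.24). Ptprc, which encodes CD45, differed by -0.61 ± 0.12 (adjusted p = 0.0031).

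Transcripts that define macrophages were present in all 4 libraries. Csf1r, the receptor for the macrophage growth factor CSF1, was at 575 and 937 CPM in CD9+ cells and at 878 and 947 CPM in CX3CR1+ cells. Cd68, a lysosomal glycoprotein of macrophages, was at 254 and 247 CPM against 283 and 333 CPM. Both were higher than the means in day 1 neutrophils, which were 372 and 151 CPM. Neither gene was a DEG, and Csf1r differed by -0.27 ± 0.19 (adjusted p = 0.37), a value that turned to 0.04 without the first CD9+ library.

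Of the 11998 genes tested, 988 (8.23%) were DEGs, 763 (6.36%) of them higher and 225 (1.88%) lower in CD9+ macrophages. The CPM of the populations did not overlap in 966 of the 988, beside 49.3% of all genes tested. The higher genes differed by more, with a median fold change of 2.26 against -1.44 for the lower genes, and 276 of the higher and 25 of the lower genes differed at least 8-fold. Among all genes the median was 0.04. For each list below, the scale is this median and the shares of 6.36% higher and 1.88% lower. Scaling by library size only moved this median to -0.20 and the split to 613 higher and 501 lower, so the excess of higher genes depended in part on the scaling. Leaving out each library in turn gave between 692 and 1391 DEGs. In all of these fits 444 of the 988 genes were called, 378 of them higher and 66 lower.

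**Figure D1:**
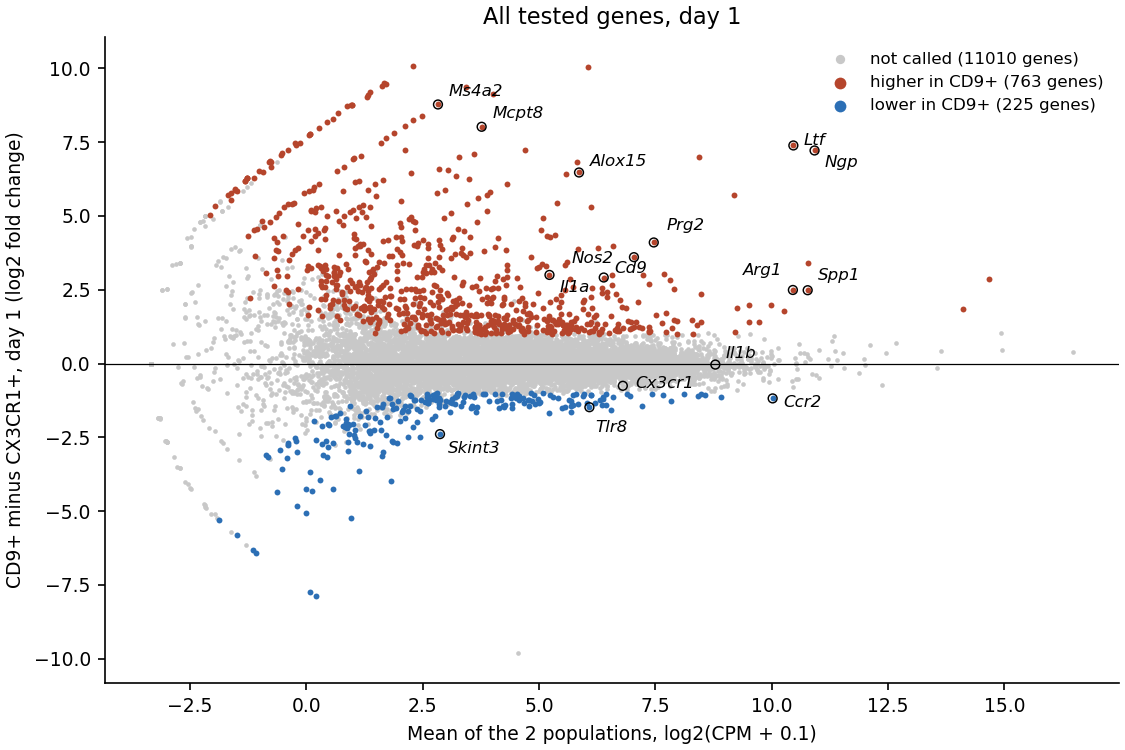
Each point is 1 of the 11998 tested genes, placed by the mean of the 2 populations on day 1 as log2(CPM + 0.1) on the horizontal axis and by the fold change of CD9+ minus CX3CR1+ macrophages (log2) on the vertical axis, with DEGs in color. The 763 higher DEGs reach larger fold changes than the 225 lower DEGs.

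The other day 1 populations give a scale for these differences. Of the 763 higher DEGs, 435 had a larger mean in neutrophils and 441 a larger mean in F4/80- cells than in CD9+ macrophages, and 198 (26.0%) had their largest mean of the 4 populations in CD9+ macrophages, beside 17.8% of all genes tested. Of the 225 lower DEGs, 139 (61.8%) had their largest mean in CX3CR1+ macrophages, beside 19.99% of all genes. By its call, a higher DEG was already above CX3CR1+ macrophages, and a lower DEG above CD9+ macrophages. The shares of all genes carry no such condition, so they are not a like baseline and no enrichment can be read from them.

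Of 18 neutrophil markers 15 were DEGs higher in CD9+ cells and 1 was lower, with a median fold change of 2.49. Ltf, which encodes the iron-binding granule protein lactoferrin, was at 4169.8 and 1451 CPM in the CD9+ libraries and at 8.05 and 25.8 CPM in the CX3CR1+ libraries. The populations did not overlap, the first CD9+ library was higher than the second, and the fold change was 7.38 ± 0.67 (adjusted p = 2.8e-06). Ngp, a secondary granule protein, was at 6196 and 1504 CPM against 20.3 and 31.7 CPM (7.21 ± 0.64, adjusted p = 2.2e-06). Camp, the precursor of the antimicrobial peptide cathelicidin, showed the same order of libraries with 972 and 409.6 CPM against 3.90 and 6.93 CPM (7.01 ± 0.47, adjusted p = 1.6e-07). Retnlg, a secreted resistin-like protein, was at 122 and 101 CPM against 0.394 and 1.61 CPM (6.84 ± 0.38, adjusted p = 3.1e-08). Olfm4, a glycoprotein of a subset of neutrophils, was at 29.5 and 13.2 CPM and had 1 count in the CX3CR1+ libraries together, a ratio of 965 with a 95% exact counting interval whose lower end was 172. S100a8, a calcium-binding alarmin, was at 1895 and 442 CPM against 316 and 277 CPM, and it lost the call without the first CD9+ library (0.58) and without the first (2.07) or the second (1.87) CX3CR1+ library. The granule proteins did not all run this way. Mmp8, the neutrophil collagenase, was at 86.7 and 73.3 CPM in CD9+ cells and at 218 and 219 CPM in CX3CR1+ cells, and its fold change was -1.45 ± 0.27 (adjusted p = 0.0019). Csf3r, the receptor for G-CSF, was also lower in both CD9+ libraries but under the threshold on size, with 155 and 121 CPM against 209 and 217 CPM (-0.62 ± 0.15, adjusted p = 0.011). Ly6g itself, the antigen of the gate, was at 1.90 and 0.105 CPM in CD9+ cells against 103 CPM on average in neutrophils, and it was no DEG without the first CD9+ library (0.51) or without the first (4.22) or the second (3.55) CX3CR1+ library.

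The summed CPM of the 18 neutrophil markers was 22110 and 7292 in the CD9+ libraries, 1860 and 1750 in the CX3CR1+ libraries and 69419 to 110810 in neutrophils. In bulk RNA from sorted cells, fewer cells of a type and less RNA of that type per cell cannot be told apart, so these sums do not say how many cells carried the transcripts. Without single libraries between 11 and 15 of the 18 markers were called higher.

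Genes of eosinophils and basophils were higher in both CD9+ libraries. All 12 eosinophil markers were DEGs, with a median fold change of 3.93, but not all kept the call in every fit without a library. Prg2, the major basic protein of eosinophil granules, was at 279.8 and 388 CPM against 7.92 and 31.3 CPM (4.10 ± 0.54, adjusted p = 1.0e-04). Epx, the eosinophil peroxidase, was at 151 and 139 CPM against 7.18 and 12.1 CPM (3.91 ± 0.56, adjusted p = 2.1e-04). Alox15, a lipoxygenase of eosinophils and of some macrophages, was at 102 and 128 CPM against 1.23 and 1.35 CPM. Its libraries differed little within a population, and the fold change was 6.47 ± 0.28 (adjusted p = 5.0e-09). Il5ra, the receptor subunit for the eosinophil growth factor IL-5, was at 13.7 and 5.68 CPM and had no count in the CX3CR1+ libraries, which makes it at least 61.9-fold higher when 3 counts are taken as the floor of a library. The ribonuclease genes Ear1, Ear2 and Ear6 of this list are close copies, so their separate counts are uncertain. The summed CPM of the 12 markers was 777 and 812 in CD9+ cells, 37.2 and 80.8 in CX3CR1+ cells, 105 to 107 in F4/80- cells and 72.1 to 78.8 in neutrophils, so that the CD9+ libraries held the highest sums of day 1.

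All 10 tested markers of basophils and mast cells were DEGs as well, with a median fold change of 7.23. Mcpt8, a serine protease that marks basophils, was at 30.0 and 24.0 CPM against 0 and 0.208 CPM (8.02 ± 0.59, adjusted p = 4.1e-07). Prss34, another basophil protease, was at 59.2 and 44.2 CPM against 0.0438 and 0.677 CPM (7.23 ± 0.43, adjusted p = 4.8e-08). Ms4a2, the beta chain of the IgE receptor, was at 22.1 and 5.89 CPM, with 1 count in the CX3CR1+ libraries together. Gata2, the transcription factor of basophils and mast cells, was at 32.5 and 15.3 CPM against 0.0438 and 0.313 CPM (7.10 ± 0.55, adjusted p = 6.9e-07). The IgE receptor chain Fcer1a, the receptor Cd200r3 and the cytokine Il4 had counts in both CD9+ libraries and none in the CX3CR1+ libraries. The sums were 309 and 161 CPM in CD9+ cells, 4.86 and 5.94 CPM in CX3CR1+ cells and 1457 to 1668 CPM in F4/80- cells. All 10 remained DEGs without any single library.

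**Figure D2:**
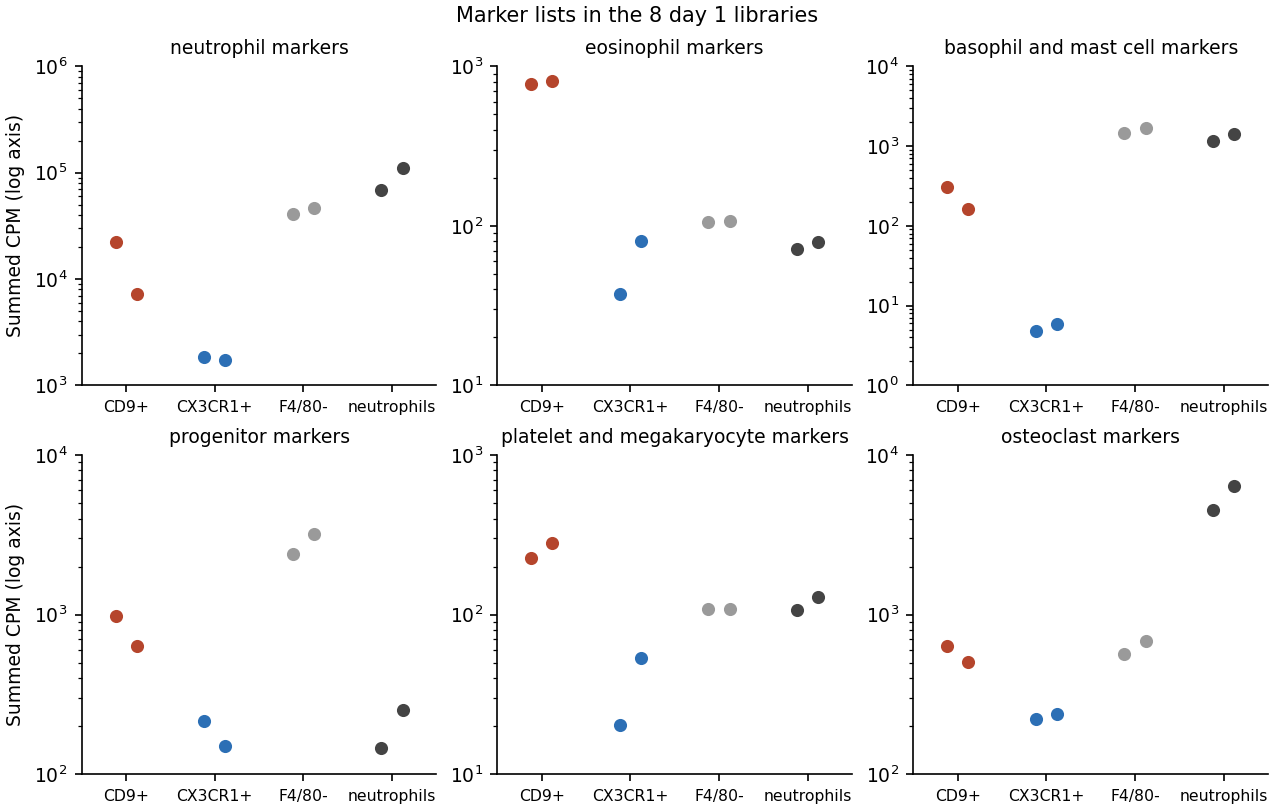
Summed CPM of the marker lists (log axis) in each of the 8 libraries of day 1, with 1 point per library and 1 panel per list. Both CD9+ libraries lie above both CX3CR1+ libraries for neutrophil, eosinophil and basophil and mast cell markers, and neutrophils or F4/80- cells lie higher still for the first and the third of these lists.

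The factors of the GATA family direct eosinophil and basophil genes, so the promoters of both lists were searched for the motif AGATAA on both strands in the 250 bases before the RefSeq gene start. It was found in 5 of 13 windows of basophil and mast cell genes and in 4 of 11 windows of eosinophil genes, beside 5.97% of the windows of tested genes and 9.99% of all windows. Of the 11998 tested genes 8851 had an entry. The windows of Ms4a2 with 3 matches (GRCm38.p6, chr19:11623720-11623969, minus strand) and of Il5ra with 1 match (chr6:106749038-106749287, minus strand) are shown because both genes were close to absent from CX3CR1+ cells. Capitals mark the motif or its reverse complement, and the gene start lies just after the last base.
Ms4a2: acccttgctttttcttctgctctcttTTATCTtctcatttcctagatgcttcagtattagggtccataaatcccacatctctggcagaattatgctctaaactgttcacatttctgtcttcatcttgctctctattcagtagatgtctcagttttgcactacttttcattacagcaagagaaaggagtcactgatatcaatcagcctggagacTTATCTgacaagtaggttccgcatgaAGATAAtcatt
Il5ra: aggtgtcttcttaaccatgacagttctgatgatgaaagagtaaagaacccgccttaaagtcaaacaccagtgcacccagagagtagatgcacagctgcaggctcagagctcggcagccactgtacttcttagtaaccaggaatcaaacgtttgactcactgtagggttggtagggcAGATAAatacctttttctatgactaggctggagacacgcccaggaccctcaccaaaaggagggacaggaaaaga
A match is a run of letters and does not show that a factor was bound.

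Marker lists of other cells moved in part. Of 11 progenitor markers 7 were higher and none lower. The calls overlap with lists given above, since Mpo, Elane and Prtn3 are also neutrophil markers and Kit is in the basophil and mast cell list. Mpo, the myeloperoxidase made by granulocyte and monocyte precursors, was at 491 and 324 CPM against 84.7 and 58.1 CPM (2.51 ± 0.37, adjusted p = 2.5e-04), and 1726 CPM on average in F4/80- cells. Kit, which encodes an antigen of the lineage gate, was at 21.7 and 5.26 CPM against 1.14 and 0.313 CPM (4.19 ± 0.57, adjusted p = 1.2e-04), and without the first CD9+ library its fold change was 2.79. Cd34 was no DEG (-0.27 ± 0.39, adjusted p = 0.7). Of 7 tested platelet and megakaryocyte markers 4 were higher, led by Itga2b, the platelet integrin CD41, with 26.8 and 30.7 CPM against 0.569 and 0.521 CPM (5.69 ± 0.34, adjusted p = 4.8e-08). Of 9 osteoclast markers 5 were higher, namely Atp6v0d2, Mmp9, Ctsk, Itgb3 and Acp5. Of these, Mmp9 is also in the neutrophil list and Itgb3 in the platelet list.

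Among 6 tested B and plasma cell markers the immunoglobulin genes Igkc, Jchain and Ighm were higher, and Iglc2 and Cd79b were lower (Cd79b was not called without the first CX3CR1+ library, -1.97). Igkc was at 417 and 153 CPM against 32.0 and 57.3 CPM (2.68 ± 0.47, adjusted p = 0.0013), and the fold change was 1.78 without the first CD9+ library. Iglc2 was at 0.634 and 0.105 CPM against 13 and 0.156 CPM, so its call rested on the first CX3CR1+ library, and without that library its sign turned (1.32). It was not called without the first (-5.86) or the second (-3.37) CD9+ library either. In the same way Ighg2c was at 267 CPM in the first CD9+ library, at 0 in the second and at 0.0438 and 0.208 CPM in CX3CR1+ cells, and it was called in 1 of the 4 fits without a library. Of 3 T and NK cell markers Nkg7 was higher, of 2 endothelial markers Pecam1 was higher, and of 11 dendritic cell markers Clec9a and Zbtb46 were higher at under 4 CPM. Neither of these 2 was called without the first CX3CR1+ library (2.09 and 1.74), Clec9a also not without the first CD9+ (1.81) or the second CX3CR1+ library (3.25), and Zbtb46 not without the second CD9+ library (1.61). No erythroid (5 tested) or stromal (5 tested) marker was a DEG. The part of these other cells in the differences of the lists below was not tested.

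Several genes of the scavenging and lipid-handling macrophage state were higher in CD9+ cells, and Arg1, Spp1 and Gpnmb had higher levels there than in any of the other 3 populations of day 1. Arg1 (chromosome 10, 24915221 to 24927484), the arginase that turns arginine into ornithine, was at 2173 and 2594 CPM in CD9+ cells and at 367 and 481 CPM in CX3CR1+ cells. The populations did not overlap (2.49 ± 0.20, adjusted p = 9.3e-07), and F4/80- cells and neutrophils averaged 119.8 and 84.6 CPM. Spp1 (chromosome 5, 104435118 to 104441050), the secreted phosphoprotein osteopontin, was at 2573 and 3363 CPM against 506 and 557 CPM. It too was separated (2.48 ± 0.23, adjusted p = 3.6e-06), with 115 CPM on average in F4/80- cells and 687 CPM in neutrophils. Of the 20 lipid-handling genes described in Trem2-type macrophages, 6 were higher and none lower, with a median of 0.55. Gpnmb, a lysosomal glycoprotein, was at 47.6 and 58.0 CPM against 9.24 and 11.1 CPM (2.38 ± 0.33, adjusted p = 1.8e-04). Cd63, a tetraspanin of lysosomes and granules, was at 92.7 and 85.3 CPM against 13.6 and 11 CPM (2.85 ± 0.21, adjusted p = 3.9e-07). Neutrophils averaged 167 CPM of Cd63. The remaining calls were Atp6v0d2, Ctsk and Abca1. Abca1 was lost without the second CD9+ library (1.0) and without the first CX3CR1+ library (1.29), and Ctsk without the second CX3CR1+ library (4.04). Trem2, the lipid receptor that names the state, was no DEG (0.36 ± 0.33, adjusted p = 0.5), nor was Apoe (0.37 ± 0.21, adjusted p = 0.26).

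Of 15 genes of alternatively activated and resident macrophages, Arg1, Cd36 and Mgl2 were higher and none was lower, and the median of 0.27 fell to 0.00 with scaling by library size only. Cd36, a receptor for oxidized lipoproteins, was at 109 and 121 CPM against 21.0 and 27.3 CPM (2.25 ± 0.28, adjusted p = 5.3e-05). Mgl2, a lectin, stayed under 2 CPM in all 4 libraries and lost its call in 3 of the 4 fits without a library, with scaling by library size only (1.42), and in a fit blocked on the replicate numbers of each day (1.66, adjusted p = 0.064). Pdpn, the mucin-type glycoprotein podoplanin, was at 134 and 205 CPM against 26.4 and 40.3 CPM (2.35 ± 0.31, adjusted p = 9.1e-05). The called tetraspanins other than Cd9 and Cd63 were Cd81 and Cd82. Cd81 was at 26.0 and 20.1 CPM against 8.84 and 7.97 CPM (1.46 ± 0.19, adjusted p = 9.0e-05), and Cd82 differed by 1.08 ± 0.14 (adjusted p = 9.0e-05). With Cd63 and with Cd9, on which the cells were sorted, 4 of 12 leukocyte tetraspanins were called higher, beside 6.36% of all tested genes. Cd82 fell under the threshold on size without the second CX3CR1+ library (0.96) and with scaling by library size only (0.84).

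Arginine was also at issue in a list of arginine and itaconate genes. Of its 9 genes 4 were higher and none lower, beside 6.36% higher among all tested genes. The calls were Nos2, Slc7a2, Acod1 and Arg1, and Arg1 was already counted among the alternatively activated genes. Nos2 (chromosome 11, 78920787 to 78960254), which makes nitric oxide from arginine, was at 203 and 284 CPM in CD9+ cells and at 13 and 27.2 CPM in CX3CR1+ cells. These values did not overlap (3.60 ± 0.35, adjusted p = 5.6e-06), and the average in neutrophils was 610.2 CPM. Slc7a2, a carrier that imports arginine, was at 21.6 and 48.3 CPM against 3.81 and 5.42 CPM (2.92 ± 0.43, adjusted p = 2.7e-04). Acod1, which makes itaconate from a Krebs cycle intermediate, was at 33.4 and 48.6 CPM against 4.77 and 8.86 CPM (2.59 ± 0.32, adjusted p = 4.7e-05), with 1332 CPM on average in neutrophils. Nos2 and Arg1 were thus higher in the same CD9+ libraries, which does not say that they were in the same cells.

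The IL-1 family divided. Il1b, the cytokine that activates endothelium and stroma through the IL-1 receptor, was at 368 and 506 CPM in CD9+ cells and at 417 and 478 CPM in CX3CR1+ cells. The libraries overlapped, the fold change was -0.04 ± 0.18 (adjusted p = 0.92), and the sign turned without the first CD9+ library (0.17). Il1a, which signals through the same receptor, was at 65.2 and 67.5 CPM against 4.29 and 12.4 CPM and was a DEG (3.0 ± 0.44, adjusted p = 2.7e-04). Il1rn, the natural antagonist of both, was at 164 and 208 CPM against 70.1 and 86.8 CPM (1.25 ± 0.24, adjusted p = 0.0022). The other calls among the 11 tested members were Il18rap, Il18r1 and Il1rl1, which are receptors for IL-18 and IL-33, and none was lower. Il18r1 was at 6.13 and 3.58 CPM and had no count in CX3CR1+ cells, which makes it at least 31.1-fold higher in CD9+ cells. Neutrophils averaged 5247 CPM of Il1b, 371 CPM of Il1a and 2029 CPM of Il1rn.

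Neutrophil-attracting chemokines were higher in CD9+ cells. Of 12 CXC chemokines and receptors 5 were DEGs, all higher, with a median of 1.46. Cxcl2, a ligand of CXCR2, was at 835 and 1280.1 CPM against 312 and 487 CPM (1.40 ± 0.32, adjusted p = 0.0077). Cxcl3, another ligand, was at 488 and 716 CPM against 81.4 and 152 CPM (2.37 ± 0.38, adjusted p = 6.0e-04). Cxcl1 was at 25.1 and 41.9 CPM against 2.89 and 7.71 CPM (2.66 ± 0.59, adjusted p = 0.0072). Without the first CX3CR1+ library 2 members were called, and Cxcl1 (2.09), Cxcl2 (1.10) and the receptor Cxcr2 (1.46) lost their calls. Cxcr2 also lost its call without the first CD9+ library (0.33), without the second CX3CR1+ library (1.13) and with scaling by library size only (1.09). Neutrophils averaged 9517 CPM of Cxcl2 and 1825 CPM of Cxcl3, and their share in these values was not tested. Among CC chemokines Ccl24 was the only called ligand of 10, and it kept no call in 3 of the 4 fits without a library. Ccl3 was at 142 and 152 CPM against 116 and 123 CPM and was no DEG (0.30 ± 0.24, adjusted p = 0.45). Of 6 CC and CX3C receptors Ccr3, the eotaxin receptor of eosinophils, was higher, with 33.5 and 16.5 CPM against 0.832 and 0.156 CPM (5.59 ± 0.54, adjusted p = 5.6e-06), and Ccr2 was lower.

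Of 14 other cytokines 5 were higher and 1 was lower, beside 6.36% and 1.88% of all tested genes. Csf1, the growth factor of macrophages and osteoclast precursors, was at 53.1 and 69.4 CPM against 5.73 and 6.04 CPM (3.37 ± 0.24, adjusted p = 2.9e-07), with 936 CPM on average in neutrophils. Tnf was at 58.0 and 71.7 CPM against 29.2 and 31.5 CPM (1.09 ± 0.23, adjusted p = 0.0052) and lost its call without the second CD9+ library (0.93), without the first CX3CR1+ library (1.02) and with scaling by library size only (0.85). Il12a, Il23a and Ltb were called at 6 CPM or less, and their calls were lost in at least 1 of the fits without a library. Inhba, which encodes the activin A subunit, led the 12 tested growth factors of repair with 81.5 and 90.4 CPM against 4.60 and 12.4 CPM (3.35 ± 0.33, adjusted p = 6.7e-06), and Vegfa was the only other call. The median of this list was 0.18, and -0.02 with scaling by library size only.

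Genes of sugar metabolism and of the response to low oxygen were higher in CD9+ cells. Under hypoxia the HIF factors are no longer hydroxylated for degradation and switch on glucose uptake, glycolysis, VEGF and their own hydroxylases. Of 22 glycolysis genes 8 were higher and none lower, beside 6.36% higher among all tested genes. All 22 had a positive fold change, with a median of 0.93 beside 0.04 for all tested genes. Slc2a3, the high-affinity glucose carrier GLUT3, was at 72.2 and 54.5 CPM against 2.23 and 3.33 CPM (4.52 ± 0.26, adjusted p = 4.3e-08). Hk3, a hexokinase of myeloid cells, was at 171 and 183 CPM against 72.1 and 58.6 CPM (1.44 ± 0.15, adjusted p = 1.5e-05). Slc2a1, the carrier GLUT1, was at 147 and 317 CPM against 86.8 and 109.8 CPM (1.24 ± 0.25, adjusted p = 0.0034). Its call was lost without the second CD9+ library (0.58), without the first CX3CR1+ library (1.05) and with scaling by library size only (0.97). The other calls were Aldoc, Pgam1, Tpi1, Slc16a3 and Pdk1. Without the second CD9+ library Aldoc (1.05) and Pgam1 (0.69) also lost theirs, and Aldoc did so without the second CX3CR1+ library (1.21). Ldha was just under the threshold on size (1.0 ± 0.15, adjusted p = 3.6e-04) and Gapdh was no DEG (0.39 ± 0.13, adjusted p = 0.064). Without single libraries the number of calls was 13 (first CD9+ library), 2 (second CD9+ library), 5 (first CX3CR1+ library) and 7 (second CX3CR1+ library), and it was 2 with scaling by library size only.

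Of 18 hypoxia response genes 8 were higher and none lower, beside 6.36% higher among all tested genes. The median was 0.67. Egln3 (chromosome 12, 54178981 to 54203860), a HIF prolyl hydroxylase, was at 64.0 and 96.3 CPM against 13.5 and 14.8 CPM. The populations did not overlap (2.5 ± 0.22, adjusted p = 2.4e-06). Hilpda, a lipid droplet protein, was at 24.6 and 51.9 CPM against 7.44 and 10.2 CPM (2.11 ± 0.35, adjusted p = 7.7e-04). Vegfa, the main angiogenic growth factor, was at 254 and 396 CPM against 87.6 and 109 CPM (1.73 ± 0.20, adjusted p = 3.0e-05). Bnip3, a mitochondrial protein of mitophagy, was at 85.2 and 81.2 CPM against 26.0 and 30.8 CPM (1.55 ± 0.13, adjusted p = 1.6e-06). Ero1l, P4ha2, Ankrd37 and Fam162a completed the calls, and 6 to 8 members were called in the fits without a library. P4ha2, at under 7 CPM, was among those lost without the first (3.60) and the second (3.26) CX3CR1+ library. Hif1a, the factor itself, was at 470.5 and 524 CPM against 466 and 505 CPM and was no DEG (0.03 ± 0.14, adjusted p = 0.9), with a sign that turned under several alternatives. The 29 tested genes of the respiratory chain and ATP synthase had a median of -0.02 and no DEG, with Sdha at -0.04 ± 0.11 and Atp5a1 at -0.01 ± 0.15.

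These lists were also high in neutrophils, with a summed CPM for glycolysis of 18539 to 19575 there, 6198 and 8864 in CD9+ cells and 4271 and 4448 in CX3CR1+ cells. For hypoxia genes the sums were 1781 and 2205 CPM in CD9+ cells, 1207 and 1345 CPM in CX3CR1+ cells and 5726 to 7101 CPM in neutrophils. The part of neutrophil transcripts in these differences was not tested.

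**Figure D3:**
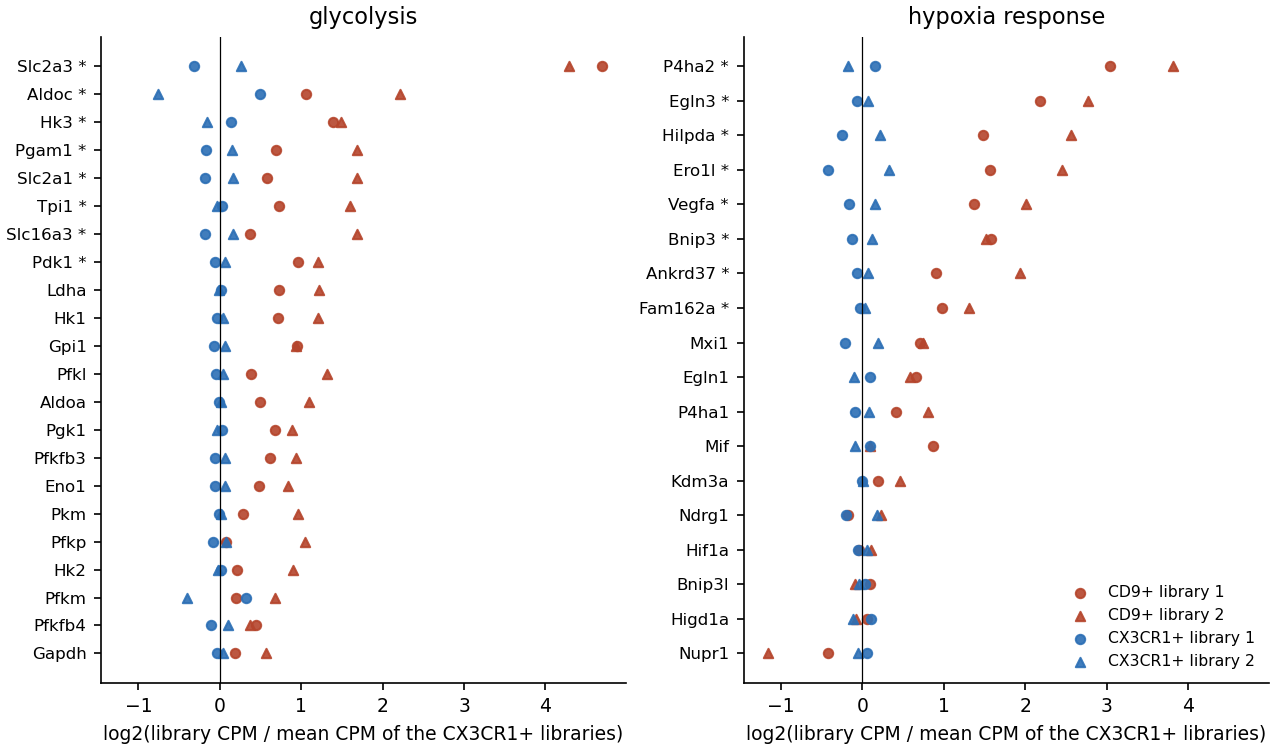
Each row is a gene of the glycolysis or the hypoxia response list, and each point a day 1 library of CD9+ or CX3CR1+ cells, placed on the horizontal axis by the log2 of its CPM over the mean CPM of the CX3CR1+ libraries. All 22 glycolysis genes have a positive fold change and 8 genes of each list are DEGs.

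The core of the hypoxia response element, ACGTG, was searched on both strands in the same promoter windows. It was found in 7 of 9 windows of called hypoxia genes, in 6 of 12 windows of hypoxia genes that were not called, and in 4 of 9 windows of called and 10 of 25 windows of other glycolysis genes, beside 21.9% of the windows of tested genes and 16.6% of all windows. The windows of Egln3 (GRCm38.p6, chr12:54203875-54204124, minus strand), Bnip3 (chr7:138909507-138909756, minus strand) and Ankrd37 (chr8:45999851-46000100, minus strand) are shown because these DEGs held the motif and have a single window each. Capitals mark the motif or its reverse complement, which overlap in Bnip3.
Egln3: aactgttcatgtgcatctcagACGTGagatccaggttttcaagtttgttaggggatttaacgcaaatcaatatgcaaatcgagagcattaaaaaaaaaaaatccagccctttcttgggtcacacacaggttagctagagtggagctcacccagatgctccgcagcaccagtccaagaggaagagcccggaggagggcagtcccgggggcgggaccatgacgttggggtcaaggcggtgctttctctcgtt
Bnip3: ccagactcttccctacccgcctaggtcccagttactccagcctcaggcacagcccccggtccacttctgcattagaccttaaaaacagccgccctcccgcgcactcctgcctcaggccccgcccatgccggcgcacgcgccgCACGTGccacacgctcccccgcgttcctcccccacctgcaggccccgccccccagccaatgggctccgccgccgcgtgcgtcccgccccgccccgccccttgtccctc
Ankrd37: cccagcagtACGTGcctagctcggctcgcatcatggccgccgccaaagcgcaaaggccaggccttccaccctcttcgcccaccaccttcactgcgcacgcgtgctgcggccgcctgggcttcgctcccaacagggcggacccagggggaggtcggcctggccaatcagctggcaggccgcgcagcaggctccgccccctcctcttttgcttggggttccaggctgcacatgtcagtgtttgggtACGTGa
The match in Egln3 and the first of 2 matches in Ankrd37 begin 229 and 241 bases before the gene start, and the overlapping pair in Bnip3 begins at 108 bases.

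Of 15 tested matrix proteases and inhibitors 9 were higher and 1, Mmp8, was lower, beside 6.36% and 1.88% of all tested genes. The median was 1.39. Mmp9, a gelatinase of neutrophils and osteoclasts, was at 186 and 82.9 CPM against 0.919 and 6.04 CPM (5.31 ± 0.57, adjusted p = 1.4e-05), and it averaged 5072 CPM in neutrophils. Mmp14, a membrane-bound collagenase, was at 152 and 241 CPM against 79.6 and 69.4 CPM (1.40 ± 0.26, adjusted p = 0.0017), where neutrophils averaged 12 CPM and F4/80- cells 17.4 CPM. Serpinb2, an inhibitor of plasminogen activation, was at 14.7 and 22.0 CPM against 1.05 and 1.67 CPM (3.75 ± 0.38, adjusted p = 8.0e-06). The other higher members included Mmp12, Mmp13, Mmp19, Mmp25 and Plau, and without the first CX3CR1+ library 5 members were called. Mmp12 (2.98) and Mmp19 (0.99) lost their calls there, and Mmp19 also without the second CD9+ library (0.67) and with scaling by library size only (0.95). Matricellular proteins other than Spp1 were not called, and the most abundant of them, Fn1, was at 12624 and 16698 CPM against 10294 and 11415 CPM (0.43 ± 0.23, adjusted p = 0.22).

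Of 13 enzymes of prostaglandin and leukotriene synthesis 5 were higher and none lower, beside 6.36% higher among all tested genes. The median was 0.85. Besides Alox15 the called enzymes were Alox5, Ptgs1, Ptges and Lta4h. Alox5, the first enzyme of leukotriene synthesis, was at 111 and 71.5 CPM against 15.1 and 15.0 CPM (2.60 ± 0.21, adjusted p = 8.3e-07), with 553 CPM in neutrophils. Ptges, which makes prostaglandin E2, was at 9.73 and 14.6 CPM against 2.23 and 3.07 CPM (2.19 ± 0.36, adjusted p = 7.2e-04). Of 19 genes of heme, iron and antioxidant defense 4 were higher and none lower, beside 6.36% higher among all tested genes. Hmox1, which breaks down heme, was at 835 and 1611 CPM against 339 and 595 CPM (1.39 ± 0.28, adjusted p = 0.0035). Its call was lost without the second CD9+ library (0.84) and without the first CX3CR1+ library (1.02). Slc40a1, the iron exporter ferroportin, was at 21.3 and 15.2 CPM against 0.219 and 1.41 CPM (4.55 ± 0.38, adjusted p = 1.4e-06), with Tfrc and Nqo1 as the other calls. Nqo1 lost its call without the first CD9+ library (1.89) and without the second CX3CR1+ library (2.09). Without the first CD9+ library 8 genes of this list were called.

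Of 15 myeloid transcription factors 5 were higher, namely Gata2, Gata1, Gfi1, Cebpe and Cebpa, and none was lower. Cebpe, a factor of granule gene expression, was at 72.7 and 32.4 CPM against 4.33 and 4.27 CPM (3.62 ± 0.32, adjusted p = 2.6e-06), and 109 CPM on average in F4/80- cells. The calls overlap with lists given above. Gata1 is also an eosinophil marker, Gata2 is in the basophil and mast cell list and Cebpe in the neutrophil list. These genes are therefore not a separate observation beside the marker sums. The part of granulocyte transcripts in the calls was not tested.

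Genes lower in CD9+ macrophages included several of monocytes. Of 20 genes of monocytes and classical macrophages 4 were lower and none higher, beside 1.88% lower among all tested genes. The median was -0.32. Ccr2 (chromosome 9, 124101950 to 124113557), the receptor that brings monocytes out of the marrow, was at 636 and 635 CPM in CD9+ cells and at 1364 and 1519.5 CPM in CX3CR1+ cells. The values did not overlap (-1.18 ± 0.22, adjusted p = 0.0019), and F4/80- cells averaged 303 CPM. Itga4, the alpha 4 integrin, was at 306 and 296 CPM against 657 and 670.0 CPM (-1.14 ± 0.13, adjusted p = 1.9e-05). Ms4a4c, a membrane protein of monocytes, was at 47.1 and 41.4 CPM against 121 and 117 CPM (-1.42 ± 0.25, adjusted p = 0.0011). Ace, the angiotensin-converting enzyme, was at 27.7 and 33.3 CPM against 59.1 and 87.4 CPM, but it lost its call without the first CD9+ library (-1.14) or the second CX3CR1+ library (-0.99). Ly6c2, the antigen of inflammatory monocytes, was no DEG (-0.14 ± 0.21, adjusted p = 0.69), nor was Chil3 (0.27 ± 0.25, adjusted p = 0.51), whose sign turned without the first CD9+ library.

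Relatives of Ms4a4c were lower too, with Ms4a6b at 48.4 and 45.5 CPM against 138 and 144 CPM (-1.58 ± 0.16, adjusted p = 8.3e-06) and Ms4a6c at 236 and 228 CPM against 488 and 472 CPM (-1.05 ± 0.23, adjusted p = 0.0059). Members of this family are similar in sequence, which leaves the division of reads among them uncertain. Ifngr1, the binding chain of the interferon gamma receptor, was at 209 and 226 CPM against 446 and 478 CPM (-1.09 ± 0.11, adjusted p = 8.7e-06). Selenop, the selenium carrier, was at 148 and 121 CPM against 321 and 325 CPM (-1.27 ± 0.22, adjusted p = 0.0011). The largest differences downward among genes above 10 CPM were those of Skint3, an immunoglobulin-like membrane protein, with 2.40 and 2.21 CPM against 10.9 and 13.4 CPM (-2.39 ± 0.37, adjusted p = 4.3e-04), Zfp626 (-1.89 ± 0.37) and Slc15a2 (-1.78 ± 0.52). Slc15a2, a peptide carrier, lost its call without the first CD9+ library (-1.09) and without the second CX3CR1+ library (-1.22). Of the C-type lectin receptors Clec4a1 (-1.08 ± 0.22) and Clec4a3 (-1.04 ± 0.22) were lower and Clec4n was higher (1.34 ± 0.26), out of 12. Clec4a1 fell under the threshold on size without the first CD9+ library (-0.89) and Clec4a3 without the second (-0.82).

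The endosomal receptors Tlr7 and Tlr8 were lower. Of 15 Toll-like receptors and co-receptors 3 were lower and none higher, beside 1.88% lower among all tested genes. The median was -0.58, beside 0.04 for all tested genes. Tlr8, an endosomal receptor for single-stranded RNA, was at 30.3 and 41.4 CPM against 90.8 and 109 CPM (-1.48 ± 0.25, adjusted p = 7.5e-04). Tlr7, its relative on the X chromosome, was at 44.3 and 38.1 CPM against 85.2 and 82.1 CPM (-1.02 ± 0.14, adjusted p = 1.3e-04) and dropped below the threshold on size without the second CD9+ library (-0.92). Ly96, the partner of TLR4, was lower at under 7 CPM (-2.43 ± 0.51, adjusted p = 0.0048). Ly86, which binds the TLR4 homolog CD180, was at 50.4 and 44.0 CPM against 112 and 113 CPM (-1.25 ± 0.18, adjusted p = 2.0e-04). Tlr2 was no DEG, at 176 and 313 CPM against 296 and 305 CPM (-0.30 ± 0.20, adjusted p = 0.35). Scaling by library size only raised the number of lower members to 6.

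Interferon-stimulated genes leaned to CX3CR1+ cells, with few calls. Of 33 tested genes 28 had a negative fold change and the median was -0.54, beside 0.04 for all tested genes. Only 3 of the 33 were DEGs, all lower in CD9+ cells, beside 1.88% of all tested genes. Gbp2, a GTPase that attacks pathogen vacuoles, was at 8.88 and 15.4 CPM against 37.5 and 24.1 CPM (-1.36 ± 0.32, adjusted p = 0.0096). Zbp1, a sensor of Z-form nucleic acid, was at 27.5 and 21.4 CPM against 61.6 and 46.7 CPM (-1.14 ± 0.36, adjusted p = 0.045). Oas2, which makes the activator of RNase L, was at 21.1 and 16.4 CPM against 41.1 and 34.3 CPM (-1.0 ± 0.20, adjusted p = 0.0028). Gbp2 was not called without the first CD9+ (-1.0) or the first CX3CR1+ library (-1.02). Oas2 was not called without the second CD9+ (-0.84) or the first CX3CR1+ library (-0.88). Among the fits without a library, Zbp1 kept its call only without the first CD9+ library (-1.34). With scaling by library size only, 6 members were called lower. None was with voom and sample quality weights, or with glmTreat against a fold change of 1.5. The number of calls was 5 in a fit blocked on the replicate numbers of each day, 8 without the first CD9+ library, 1 without the second, 0 without the first CX3CR1+ library and 2 without the second. Ifitm3, a membrane protein that blocks virus entry and is not in the list, was at 138 and 128 CPM against 229.7 and 218 CPM and was under the threshold on size (-0.75 ± 0.19, adjusted p = 0.013). The motif of the interferon-stimulated response element is GAAA, any 2 bases, GAAA, on either strand. It was found in 12 of 28 windows of listed genes, beside 2.91% of the windows of tested genes and 2.98% of all windows. Genes that were not called held 11 of these matches, in 27 windows. The list was chosen as interferon-stimulated, so its share of motifs does not bear on the difference between the populations. Gbp2, the only called gene of the list with an entry, is shown with the reverse complement of its match in capitals (GRCm38.p6, chr3:142620413-142620662, plus strand).
Gbp2: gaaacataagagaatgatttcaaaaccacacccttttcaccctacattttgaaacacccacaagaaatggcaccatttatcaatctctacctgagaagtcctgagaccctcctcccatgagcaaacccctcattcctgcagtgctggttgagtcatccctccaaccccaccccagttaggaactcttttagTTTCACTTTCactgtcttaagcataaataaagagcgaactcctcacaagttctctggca

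The remaining lists had few calls or none. In MHC class II presentation H2-Oa, which restrains peptide loading, was the only DEG of 11 (2.57 ± 0.51, adjusted p = 0.0029), and the abundant H2-Ab1 was no DEG at 341 and 376 CPM against 361 and 296 CPM. The lists of MHC class I presentation (14 tested), inflammasome (9), NF-kappaB subunits and inhibitors (15), phagocyte NADPH oxidase (6), Fc gamma receptors (6), lysosome hydrolases and proton pump (25), cholesterol and fatty acid synthesis (21) and cytosolic ribosomal proteins (30) held no DEG. Of 20 immediate early genes Fosl1 was the only call (1.37 ± 0.21, adjusted p = 3.9e-04), of 13 BCL2 family genes Bcl2l1 was called (1.18 ± 0.18, adjusted p = 4.6e-04), and of 22 chaperone genes Trib3 was. Bcl2l1 was under the threshold on size without the second CD9+ library (0.91) and with scaling by library size only (0.92). All 28 cell cycle genes had a positive fold change, with a median of 0.40 beside 0.04 for all tested genes. However, Mcm2 was the only DEG of this list (1.06 ± 0.22, adjusted p = 0.0043). It lost its call without the second CX3CR1+ library (0.86) and with scaling by library size only (0.81). In the complement list the DEG Cd55 was at 9.02 and 0.947 CPM in CD9+ cells and with no count in CX3CR1+ cells, and the median of the list, 0.13, turned to -0.12 with scaling by library size only. The same scaling turned the median of the chaperones from 0.15 to -0.10.

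**Figure D4:**
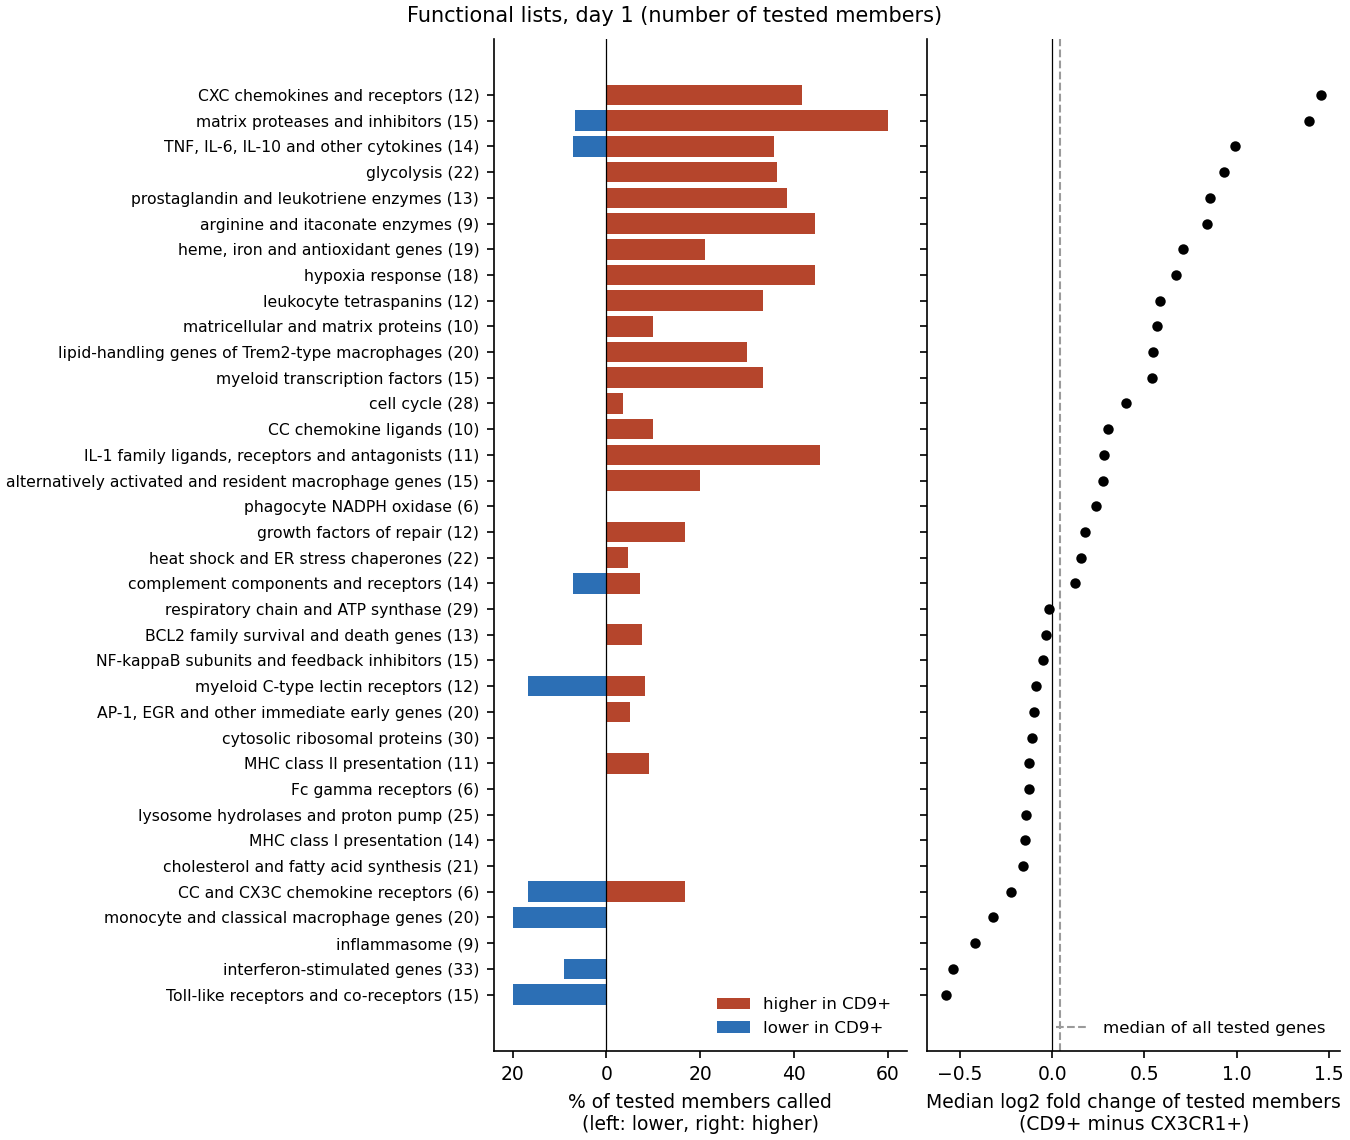
For each functional list, the left panel gives the percentage of tested members called lower (to the left) or higher (to the right) in CD9+ cells, and the right panel the median fold change (log2) of the tested members. Matrix proteases (median 1.39), CXC chemokines and receptors (1.46) and glycolysis (0.93) lie to the right, and Toll-like receptors (-0.58) and interferon-stimulated genes (-0.54) to the left.

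Libraries of day 14 show which differences were found again. On day 14, 14.2% of the tested genes were DEGs between the same populations, 9.65% higher and 4.55% lower in CD9+ cells. Of the 763 higher DEGs of day 1, 557 (73.0%) were higher DEGs on day 14, where they made up 48.1% of the higher DEGs. Of the 225 lower DEGs, 87 (38.7%) were lower DEGs on day 14, where they made up 15.9% of the lower DEGs. Of all 988, 4 were DEGs in the opposite direction. The change of the population difference between the days was tested as an interaction, which was significant for 2.84% of all tested genes and for 96 of the 988.

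Arg1 and Spp1 differed by more on day 14. Arg1 moved from 2.49 ± 0.20 on day 1 to 5.21 ± 0.30 on day 14, a difference of 2.72 ± 0.38 (adjusted p = 0.0014), and Spp1 from 2.48 ± 0.23 to 4.47 ± 0.26 (1.99 ± 0.32, adjusted p = 0.0039). Among tetraspanins, Cd9 itself went from 2.91 ± 0.14 to 4.63 ± 0.16 (1.72 ± 0.20, adjusted p = 4.2e-04). In the hypoxia list Bnip3 went the other way, from 1.55 ± 0.13 to 0.44 ± 0.15 (-1.11 ± 0.20, adjusted p = 0.0067). For Nos2, 2.29 ± 1.08 on day 14 did not pass the test (adjusted p = 0.14), but its change was not significant either (-1.31 ± 1.44, adjusted p = 0.71). Il1b, no DEG on day 1, was lower in CD9+ cells on day 14 (-1.28 ± 0.18, adjusted p = 8.5e-05), and the interaction was -1.24 ± 0.25 (adjusted p = 0.014). Ccr2 was lower on both days, with -2.30 ± 0.23 on day 14 and an interaction of -1.12 ± 0.31 (adjusted p = 0.067).

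**Figure D5:**
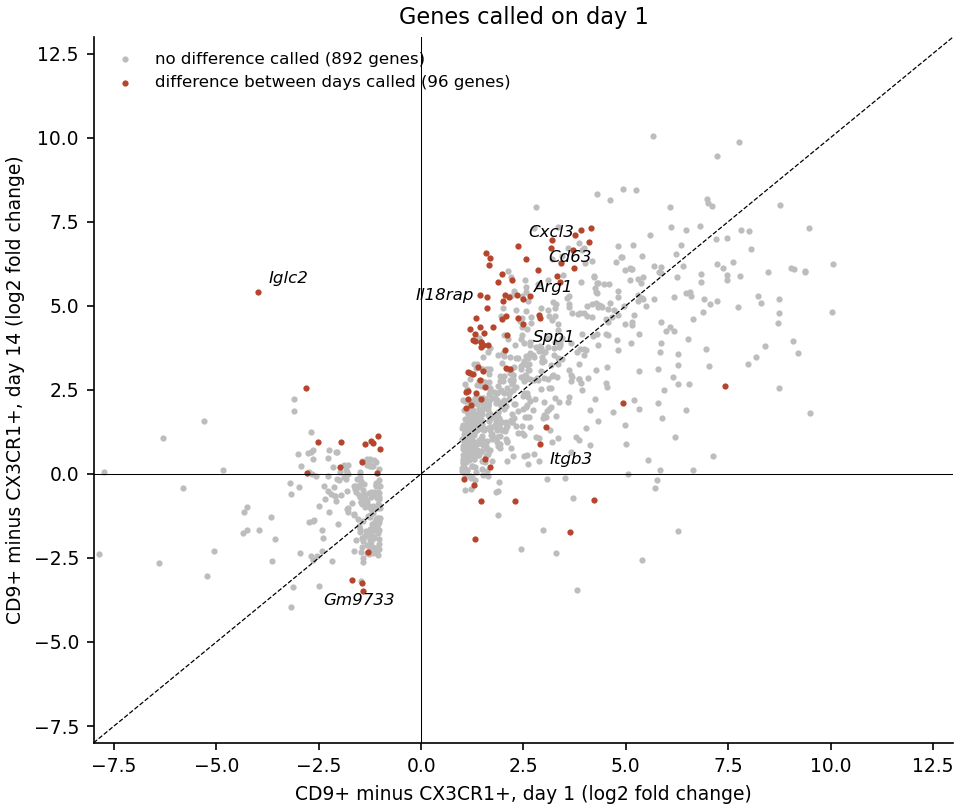
Fold change of CD9+ minus CX3CR1+ macrophages (log2) on day 1 (horizontal axis) and day 14 (vertical axis) for the 988 genes called on day 1, with genes whose change between the days was significant in color. Of the 763 higher genes 732 have a positive and of the 225 lower genes 175 a negative value on day 14.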

How the data were processed

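Bulk RNA-seq was done on 16 libraries of sorted myeloid cells, of which the 4 of CD9+ and CX3CR1+ macrophages of day 1 were compared (2 per group, grouped by the sorting and time labels). The authors made SMART-Seq Stranded libraries, trimmed and aligned the reads to mm10 with STAR and deposited raw read counts per gene for 20200 genes. The smallest total of a gene in the table is 17 counts. Whether the counting used strand is not given in the sources used here, so overlapping and antisense genes are uncertain. The libraries carry no molecular identifiers, so counting intervals and floors cover counting error only.

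From the deposited counts, 11998 genes whose mean CPM reached 3 in any of the 8 groups were retained, scaled by TMM and fitted in R 4.3.3 with edgeR 4.0.16 (glmQLFit, glmQLFTest) over all 16 libraries. The model held only the 8 group means. To be a DEG, a gene needed an adjusted p (Benjamini-Hochberg) below 0.05 together with a log2 difference of 1 or more in size. The change between days was tested as an interaction of the same model. The steps were tested on simulated data. CPM is scaled to the library and not to gene length.

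Members, gene lists and rules were chosen with earlier results of these data known. Lists are described by counts and medians, without a set test. Named genes are the sorting antigens, the 12 DEGs with the largest and the 12 with the smallest fold change among those that do not overlap and reach 10 CPM, 12 genes the study names, and up to 4 DEGs per list. Every other gene named, among them Tnf, Gpnmb, Abca1, Apoe, Trem2, Csf1r, Cd68, S100a8, Prg2, Epx, Slc2a1, Ldha, Gapdh, Bnip3, Hif1a, Mmp14, Pdpn, Fn1, H2-Ab1, Il1rn, Ifngr1, Selenop, Ly86, Ms4a6c, Gm23935, Gm42418, Ighg2c, Nrp2 and Fam20c, was chosen after its values were seen. Promoter windows are RefSeq sequences of GRCm38.p6, covering 250 bases before each gene start. The alternatives were DESeq2 1.42.0, limma 3.58.1 (voom with sample quality weights), other scalings, filters, samples and thresholds, the replicate number as a block, and leaving out each library in turn. Columns of the other populations were used as reference levels, and the single-cell data of the study were not used here. Genes withheld for evaluation are not reported here.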

Additional observations from a re-analysis of the deposited data

Results flagged for a closer look

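The genes below are those named here whose difference between CD9+ and CX3CR1+ macrophages was of another size on day 14 than on day 1 (interaction in the quasi-likelihood test of edgeR, Benjamini-Hochberg adjusted p under 0.05, 2 libraries per group). Of all tested genes 2.84% passed this test. Values are day 14 minus day 1 on the log2 scale.

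The difference grew for Cd9 (1.72), Cd63 (3.20) and Cd81 (2.32) among tetraspanins, for Arg1 (2.72), Spp1 (1.99), Pdpn (2.97), Mmp14 (1.77), Serpinb2 (3.36), Acp5 (2.03), Nrp2 (1.04), Emp1 (2.63) and Lmna (2.47), and for Cxcl3 (4.42) and the IL-18 receptor chain Il18rap (3.31). Il18rap was at 61.5 and 50.7 CPM against 17.9 and 19.0 CPM on day 1, with a fold change of 1.61 ± 0.13 that became 4.92 ± 0.16 on day 14.

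It also grew for granulocyte genes, namely S100a8 (3.97), S100a9 (2.85), Lcn2 (3.16), Gfi1 (3.18), Prg2 (2.80), Epx (3.33) and Siglecf (2.39), and for Jchain (2.62). Iglc2 changed by 9.40, a value that rests on 1 CX3CR1+ library of day 1 at 13 CPM.

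The difference moved downward for Bnip3 (-1.11), Itgb3 (-1.99), Fam20c (-1.48), Il1b (-1.24), Fn1 (-1.80), Tlr2 (-1.15), Ifitm3 (-1.40) and Gm9733 (-1.47). For Bnip3 and Fam20c, DEGs on day 1 and not on day 14, the day 14 values were 0.44 ± 0.15 and 0.20 ± 0.21. For Il1b, Fn1 and Tlr2, which were no DEGs on day 1, the day 14 values were -1.28 ± 0.18, -1.36 ± 0.23 and -1.45 ± 0.21. Gm9733, a gene without an assigned name, went from -1.68 ± 0.22 to -3.16 ± 0.24.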

How the results depend on the processing

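The 988 DEGs (763 higher, 225 lower) became 1152 with DESeq2, 983 of them shared, and 576 (64 lower) with voom and sample quality weights, which gave the CD9+ libraries weights of 0.308 and 0.252 against 0.960 and 0.926 for CX3CR1+ cells. A filter met in every group left 321 (256 higher, 65 lower) among 7687 tested genes. Fitting the 4 compared libraries alone gave 351 (306 higher, 45 lower), and the 8 macrophage libraries 148 lower. The causes of these smaller numbers were not tested. There were 1882 without a minimum fold change (1248 higher, 634 lower), 653 with glmTreat (93 lower) and 501 lower when only library size was used for scaling. Without single libraries the total was 692 to 1391, the higher 555 to 907 and the lower 137 to 532. The 532 were found without the first CD9+ library, 399 without the second and 137 without either CX3CR1+ library, and the cause was not tested. After thinning to the smallest total, chosen after seeing the data, 936 were DEGs.

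Whether same-numbered libraries of 1 day came from 1 pool of mice is not stated, and the correlation of their deviations was 0.029, over 2 pairs. A block for it within each day gave 983 DEGs, 937 of them shared, and in the 4 libraries 679 (144 lower). Of the named genes, the first block took the call from 1, Mgl2 (1.66, adjusted p = 0.064), and the second from 11.

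Signs turned in some fits without 1 library, over which Il1b ranged from -0.28 to 0.17, Tlr2 from -0.77 to 0.059, Chil3 from -0.094 to 0.56, Csf1r from -0.67 to 0.038, Iglc2 from -5.86 to 1.32, H2-Ab1 from -0.038 to 0.26, Hif1a from -0.045 to 0.11 and Ighg2c from -3.82 to 11.30. H2-Ab1 also turned with library size scaling (-0.12). The log2 fold change of Hif1a also turned with library size (-0.21) or upper quartile (-0.032) scaling, without a filter (-0.0085) and without the mitochondrial and ribosomal loci (-0.0072). The interaction of Tlr2 did not pass with library size scaling (-0.90, adjusted p = 0.069). With 2 libraries a group, a fit without 1 of them assumes that the lone library varies like the other groups.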

Other observations

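Some DEGs outside the lists had their largest mean of the 4 day 1 populations in CD9+ macrophages. These genes were chosen after their values were seen and are given as a description. Nrp2, a receptor for semaphorins and lymphatic growth factors, was at 146 and 151 CPM in CD9+ cells and at 55.9 and 60.2 CPM in CX3CR1+ cells (1.35 ± 0.17), against 15.4 CPM on average in F4/80- cells and 6.80 CPM in neutrophils. Its libraries were close within each population, and it was a DEG in each of the 4 fits that left out 1 library. Fam20c, the kinase that phosphorylates secreted proteins such as osteopontin, was at 92.7 and 109 CPM against 33.0 and 29.5 CPM (1.69 ± 0.20), and neutrophils averaged 44.0 CPM. Sdc4, a heparan sulfate proteoglycan of the cell surface, was at 81.5 and 144 CPM against 32.4 and 39.4 CPM (1.65 ± 0.32). The second CD9+ library was the higher for Sdc4, and also for Lmna, the nuclear lamin A and C gene, with 275 and 461 CPM against 114 and 155 CPM (1.45 ± 0.29). Lmna was not called without the first CX3CR1+ library (1.23, adjusted p = 0.055), and neither was the membrane protein gene Emp1 (1.05, adjusted p = 0.15).

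Of all 763 higher DEGs, 198 (26.0%) had their largest mean in CD9+ macrophages, beside 17.8% of all genes tested. As given above, the second share is not a like baseline, and no enrichment can be read from it.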
